A study of Sus scrofa with 4 samples.

Results

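The core autophagy genes are the 35 genes that encode the machinery of autophagosome formation and its main cargo receptors. They were taken by symbol from the 20491 genes of the deposited table, and every symbol had exactly 1 row. Each of the 35 was among the 15552 genes with enough counts to be tested. The study measured RNA in pig (Sus scrofa) follicle granulosa cells, the somatic cells around the oocyte, in 2 libraries transfected with a negative control and 2 transfected to interfere with YTHDF2 (siYTHDF2), an m6A reader that promotes decay of bound mRNA. Its title asks whether YTHDF2 carries the proliferative action of BDNF in these cells, but the labels of these 4 libraries name no BDNF, siRNA sequence, time after transfection, animal or culture. The spread behind every p-value is therefore that between libraries of unstated origin, and it may be technical.

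Autophagy encloses cytoplasm in a double membrane, the autophagosome, and delivers it to the lysosome. The ULK kinase complex starts the process, a class III PI3-kinase complex marks the membrane with the lipid PI3P, and ATG9A, ATG2 and WIPI proteins supply lipid and read that mark. A ubiquitin-like conjugation system then joins ATG8 proteins (LC3 and GABARAP) to the membrane, where cargo receptors such as SQSTM1 bind them. In the ovary, autophagy of granulosa cells has been linked to follicular atresia. Transcripts of ULK1, ATG5 and ATG7 have been described in human and mouse cells as m6A-marked and bound by YTHDF2.

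Total counts were 47209177 to 54841851 per library, and YTHDF2 itself was counted 3660 and 3356 times in the controls, against 1122 and 1279 times after interference (log2 fold change -1.49, SE 0.09, adjusted p = 1.49e-05). Among members the thinnest coverage was that of ATG10, with 199 and 211 counts in the controls against 166 and 226 after interference. Of the granulosa cell markers checked, the aromatase gene CYP19A1 had counts of 0 to 11 and AMH of 10 to 100, whereas FOXL2 had 240 to 345 and FSHR 484 to 622. Summed over 18 granulosa markers the level was 3502 to 3688 CPM (counts relative to library size, scaled by TMM) in the 4 libraries. GJA1 made up most of that sum, with 2515 and 2386 CPM in the control and 2106 and 2246 CPM with siYTHDF2. The sum therefore says little about the other markers. Of 17 tested markers 3 were called higher, SERPINE2 (log2 fold change 0.98), CDH2 (0.31) and KITLG (0.29), and 1 lower, INHBB (-0.69). Of 16 theca and stroma markers listed, 14 were in the deposited table. Of these 14, 8 were lower, 1 was higher and 5 were not called, and none was at 0. The 14 genes summed to 22851 and 23541 CPM in the control and 13143 and 12830 CPM with siYTHDF2. ACTA2 was the largest part of that sum, with 12147 and 12801 CPM in the control and 6639 and 6286 CPM with siYTHDF2. The sum therefore says little about the other markers of this list. DES was the higher gene, with 52.2 and 58.6 CPM in the control and 239 and 206 CPM with siYTHDF2. The part of these markers in the results below was not tested.

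Interference with YTHDF2 was accompanied by small shifts of core autophagy transcripts in both directions. A gene is called here when edgeR's quasi-likelihood test, adjusted over all genes, gave a p under 0.05. By that rule ATG16L1, ATG12, ATG5, WIPI2 and BECN1 rose, ATG2A, WIPI1, ULK1, MAP1LC3A and SQSTM1 fell, and 25 members were not called. The 10 calls are 28.6% of the members against 19.6% of all tested genes. The 5 higher members make 14.3% against a background of 9.05%, and the 5 lower members 14.3% against 10.6%. No member changed by 2-fold or more, which 2.91% of all tested genes did at the same threshold. Leaving out any of the 4 libraries left 1 library in its group. Fewer genes were then called, both among members and among all tested genes. The members' median log2 fold change in these fits ran from -0.04 to 0.00. In bulk libraries a change in the cells present and a change of RNA per cell cannot be told apart.

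The members' median log2 fold change was -0.02, against 0.00 for all tested genes, and ran from -0.75 (ATG2A) to 0.55 (ATG16L1). The median size of a change, whatever its direction, was 0.15 on the log2 scale among members and 0.25 among all genes. The control and siYTHDF2 values did not overlap for 19 members, or 54.3%, against 60.0% of all tested genes, so a lack of overlap alone does not mark these genes out. The split of 5 higher and 5 lower calls was 3 and 6 with upper quartile scaling and 1 and 5 in limma on log2(FPKM + 1). ATG16L1, ATG2A, WIPI1 and SQSTM1 were called in the same direction under all 13 other settings, and the other 6 calls were each lost in at least 3 of them.

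**Figure D1:**
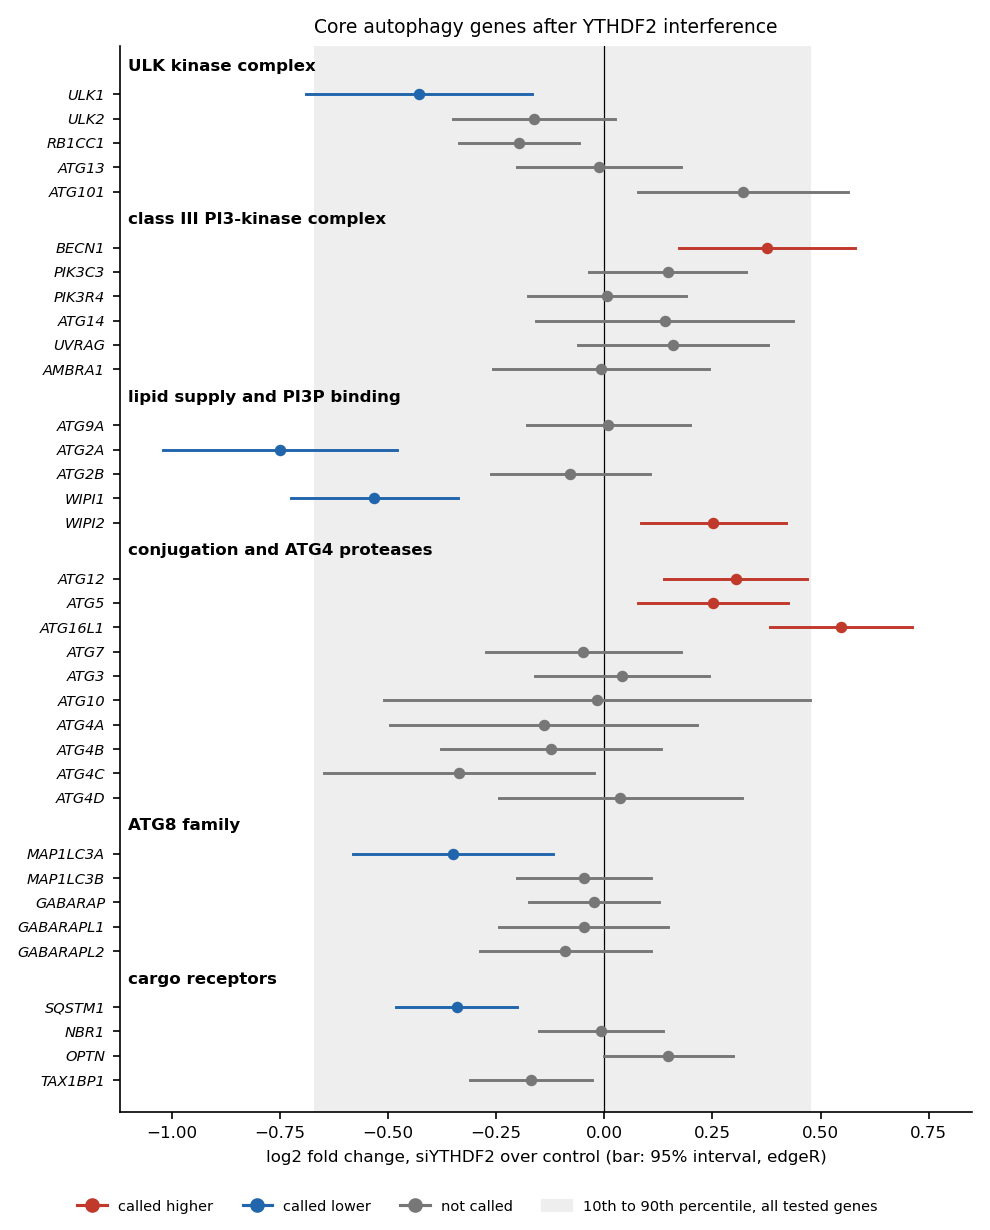
Log2 fold changes (siYTHDF2 over control) of the 35 core autophagy genes by step, with 95% intervals from the edgeR fit (2 libraries per group); red genes were called higher, blue genes lower, and the grey band spans the 10th to 90th percentile of the 15552 tested genes. Only ATG2A (-0.75) and ATG16L1 (0.55) lie outside the band.

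Of the 5 genes of the ULK kinase complex 1 was lower and none higher in edgeR. There were 1 higher and 2 lower at an unadjusted p under 0.05 (0 and 2 in DESeq2). Among all 15552 tested genes edgeR called 9.05% higher and 10.6% lower. At an unadjusted p under 0.05 the numbers were 2510 and 2633 (1515 and 1660 in DESeq2). With 5 genes these counts say little about the complex as a whole. ULK1, the kinase that phosphorylates several downstream members, stood at 56.1 and 50.5 CPM in the control and 35.1 and 44.1 CPM with siYTHDF2. Both siYTHDF2 values lay below both control values, and the 2 siYTHDF2 libraries differed more from each other than the controls did. The fitted change was -0.43 on the log2 scale (SE 0.12, adjusted p = 0.0302). Its position is chromosome 14, 23423698 to 23448136; coordinates are those of the deposited table, and their genome build is not given here. ULK1 was no longer called when siYTHDF2 replicate 1 (-0.28, adjusted p = 0.146) or transfection control replicate 1 (-0.35, adjusted p = 0.114) was left out.

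RB1CC1 encodes FIP200, the scaffold of the complex, and was the most abundant of its 5 transcripts in FPKM. It had 264 and 269 CPM in the control and 230 and 235 CPM with siYTHDF2, which do not overlap. With a log2 fold change of -0.20 (SE 0.06) it just missed the threshold (adjusted p = 0.0513), and DESeq2 called it lower (adjusted p = 0.0295). ATG101, a partner that stabilizes ATG13, had 19.2 and 20.4 CPM in the control and 25.8 and 23.6 CPM with siYTHDF2. Its groups do not overlap either, but the log2 fold change of 0.32 (SE 0.11) was not called (adjusted p = 0.0665). The kinase paralog ULK2 (log2 fold change -0.16, 95% interval -0.35 to 0.03) and the adaptor ATG13 (-0.01, interval -0.20 to 0.18) were not called.

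Of the 6 genes of the class III PI3-kinase complex 1 was higher, BECN1, and none was lower in edgeR, in DESeq2 or at an unadjusted p under 0.05. This single call makes 16.7% higher, against 9.05% of all tested genes. BECN1 encodes Beclin 1, the scaffold that recruits regulators to the lipid kinase. It had 65.4 and 71.4 CPM in the control and 95.4 and 82.1 CPM with siYTHDF2, so that the lower siYTHDF2 value still exceeded the higher control value. The log2 fold change was 0.38 (SE 0.09, adjusted p = 0.0188). BECN1 lies on chromosome 12 from 20041956 to 20054373. It was no longer called when siYTHDF2 replicate 1 (0.26, adjusted p = 0.124) or transfection control replicate 1 (0.31, adjusted p = 0.0671) was left out.

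PIK3C3, the catalytic subunit VPS34, had a log2 fold change of 0.15 (95% interval -0.03 to 0.33). ATG14, the subunit that directs the complex to autophagosome formation, had 0.14 (-0.16 to 0.44), and UVRAG, its counterpart on endosomes, 0.16 (-0.06 to 0.38). The control and siYTHDF2 CPM values of these 3 genes did not overlap, but none was called. The pseudokinase PIK3R4 (0.01, -0.18 to 0.19) and AMBRA1, a regulator that binds Beclin 1 (-0.01, -0.26 to 0.24), had intervals on both sides of 0. ATG13 and AMBRA1 both lie on chromosome 2, 19265 bases apart in the deposited table.

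The genes of lipid supply and PI3P binding held the largest decrease of the set. ATG2A, which encodes a bridge-like protein that moves lipids into the growing membrane, had 36.6 and 32.3 CPM in the control and 18.7 and 22.2 CPM with siYTHDF2. Its level was lower by 40.5% in the fit (log2 fold change -0.75, SE 0.12, adjusted p = 0.00286), and the groups do not overlap. ATG2A lies on chromosome 2 from 7262031 to 7282347. The paralog ATG2B, at 47.4 to 53.0 CPM in the 4 libraries, had overlapping groups and was not called (-0.08, 95% interval -0.26 to 0.11). ATG9A, the transmembrane scramblase of the seed vesicles, was not called either (0.01, -0.18 to 0.20).

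The WIPI proteins bind PI3P, and WIPI2 recruits ATG16L1 to the membrane. WIPI1 (chromosome 12, 11715318 to 11752007) had 51.1 and 52.8 CPM in the control and 37.2 and 34.6 CPM with siYTHDF2, a change of -0.53 on the log2 scale (SE 0.09, adjusted p = 0.00289). WIPI2 (chromosome 3, 3800186 to 3834413) moved the other way, from 52.9 and 54.5 CPM to 64.9 and 63.0 CPM (0.25, SE 0.07, adjusted p = 0.0419). In neither gene did the groups overlap. The WIPI2 call was lost when any of the 4 libraries was left out (adjusted p = 0.0773 to 0.207).

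The conjugation genes held 3 of the 5 higher calls, in the 3 subunits of the complex that attaches ATG8 proteins to lipid. With the ATG4 proteases this step has 10 tested genes, and 9.05% of all tested genes were called higher. DESeq2 called 2 of the 10 higher. ATG12 is joined covalently to ATG5, and ATG16L1 binds the pair and sets the site of conjugation. ATG16L1 (chromosome 15, 133651298 to 133693468) had 49.4 and 49.8 CPM in the control and 72.2 and 72.6 CPM with siYTHDF2. Libraries within a group differed by under 1 CPM, and the log2 fold change of 0.55 (SE 0.07, adjusted p = 0.00109) was the largest increase of the set. ATG12 (chromosome 2, 119941997 to 119965696) rose from 80.3 and 73.9 CPM to 96.4 and 94.0 CPM (0.30, SE 0.07, adjusted p = 0.0197). ATG5 (chromosome 1, 72403091 to 72520396) rose from 49.2 and 52.0 CPM to 59.5 and 61.0 CPM (0.25, SE 0.08, adjusted p = 0.0487). The groups of all 3 genes do not overlap. ATG5 lay closest to the threshold of all called members, and it was not called when any of the 4 libraries was left out (adjusted p = 0.0635 to 0.221) or in DESeq2 (adjusted p = 0.0535). ATG12 was no longer called when transfection control replicate 2 (adjusted p = 0.0882) or siYTHDF2 replicate 1 (adjusted p = 0.0843) was left out.

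**Figure D2:**
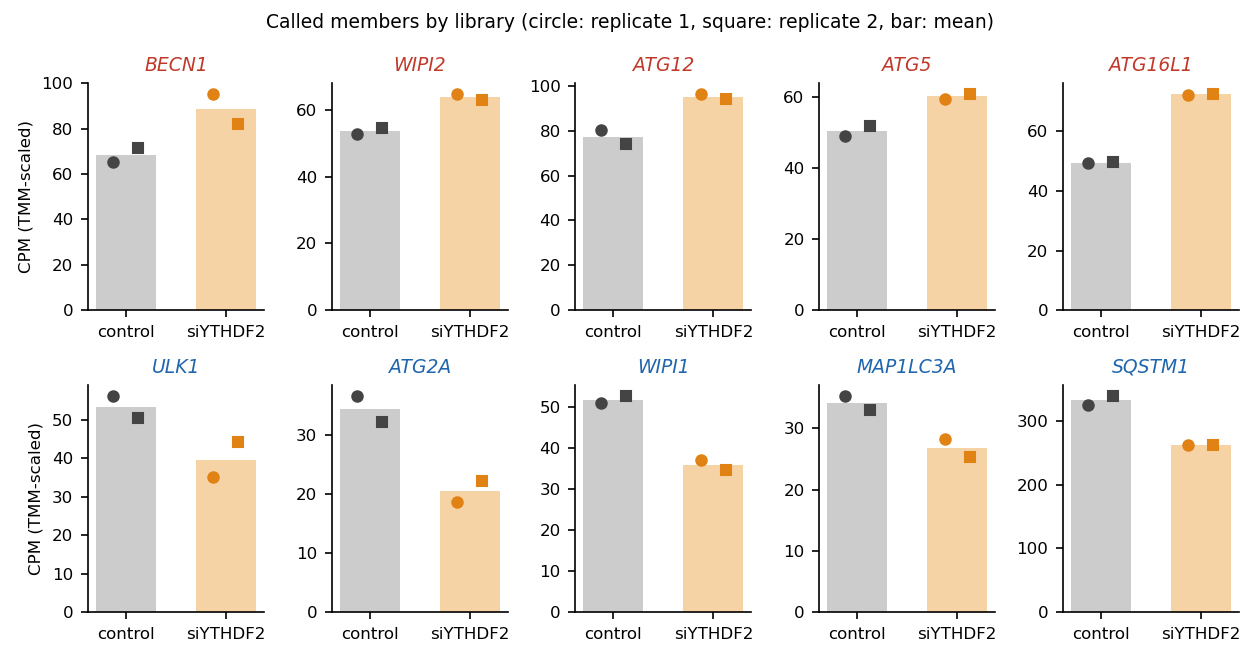
TMM-scaled CPM of the 10 called members in each library, with higher genes on top and lower genes below; bars are group means of 2 libraries and points the libraries. In every panel both siYTHDF2 libraries lie on the same side of both controls, with the tightest pairs for ATG16L1 (49.4 and 49.8 against 72.2 and 72.6 CPM).

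None of the enzymes that feed this complex was called. The E1-like ATG7, which activates both ubiquitin-like proteins, had 31.6 and 29.0 CPM in the control and 30.2 and 28.4 CPM with siYTHDF2 (log2 fold change -0.05, 95% interval -0.27 to 0.18). The E2-like enzymes ATG3 (0.04, -0.16 to 0.24) and ATG10 (-0.02, -0.51 to 0.48) had overlapping groups as well. Among the transcripts named above as YTHDF2-bound in other cells, ULK1 was thus lower, ATG5 slightly higher and ATG7 not called.

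The ATG4 proteases process ATG8 proteins before conjugation and release them from membranes. ATG4C was the member of the 4 whose groups did not overlap, with 11.7 and 13.3 CPM in the control and 10.1 and 9.68 CPM with siYTHDF2. Its log2 fold change of -0.34 (SE 0.14) was not called (adjusted p = 0.125). ATG4A (-0.14), ATG4B (-0.12) and ATG4D (0.04) had overlapping groups, and their 95% intervals together ran from -0.49 to 0.32.

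Of the 5 ATG8 family genes 1, MAP1LC3A, was lower and none higher in edgeR, in DESeq2 or at an unadjusted p under 0.05. Among all tested genes edgeR called 10.6% lower and 9.05% higher, so 1 call among 5 genes says little about the family. MAP1LC3A (chromosome 17, 37957507 to 37959505) had 35.3 and 33.1 CPM in the control and 28.3 and 25.3 CPM with siYTHDF2. Its groups do not overlap (-0.35, SE 0.10, adjusted p = 0.0409). It was no longer called when transfection control replicate 1 (adjusted p = 0.146) or siYTHDF2 replicate 2 (adjusted p = 0.188) was left out. The whole span of MAP1LC3A lies within that of PIGU on the other strand, whose log2 fold change was 0.09 (adjusted p = 0.544), and whether counting used the strand is not stated.

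MAP1LC3B, whose protein is the usual marker of autophagosomes, had 123 and 133 CPM in the control and 125 and 123 CPM with siYTHDF2 (-0.05, 95% interval -0.20 to 0.11). GABARAP (-0.02, -0.17 to 0.13), GABARAPL1 (-0.05, -0.24 to 0.15) and GABARAPL2 (-0.09, -0.29 to 0.11) had overlapping groups too. These intervals leave room for a decrease of at most 0.29 and an increase of at most 0.15 on the log2 scale. In human, MAP1LC3B has a near-identical copy, and how reads were shared among copies is not given here, so its value is uncertain in that respect.

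Among the cargo receptors SQSTM1 fell. SQSTM1 encodes p62, which links ubiquitinated cargo to ATG8 proteins and is itself degraded by autophagy. It had 325 and 338 CPM in the control and 261 and 262 CPM with siYTHDF2, with no overlap (-0.34, SE 0.06, adjusted p = 0.00541). SQSTM1 lies on chromosome 2 from 78752771 to 78763938. TAX1BP1, a receptor for ubiquitinated aggregates, had 239 and 246 CPM in the control and 212 and 219 CPM with siYTHDF2 but was not called (-0.17, SE 0.06, adjusted p = 0.0909). OPTN, a receptor for damaged mitochondria, had a log2 fold change of 0.15 (95% interval -0.00 to 0.30). NBR1, a partner of p62, stayed within 117.8 to 119 CPM in all 4 libraries (-0.01, -0.15 to 0.14).

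Levels of different genes were set side by side in FPKM, which divides by gene length. The deposited FPKM was low by 11.0% relative to CPM in siYTHDF2 replicate 1, compared with control replicate 1 over 12083 genes, so the order was read within the control. GABARAP led with 282 and 308 FPKM, followed by SQSTM1 with 134 and 141 and OPTN with 60.7 and 65.5. TAX1BP1 and ATG3 came next, and their control values overlap, so their order is not resolved. At the other end ATG7 (2.08 and 1.93 FPKM) and ATG14 (2.04 and 1.86) overlap, and ATG10 was lowest with 0.947 and 0.992. With control means of 5.51 down to 4.93 FPKM, PIK3C3, ATG2B, AMBRA1, ATG4D, ATG5 and ATG2A overlap each with the next.

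**Figure D3:**
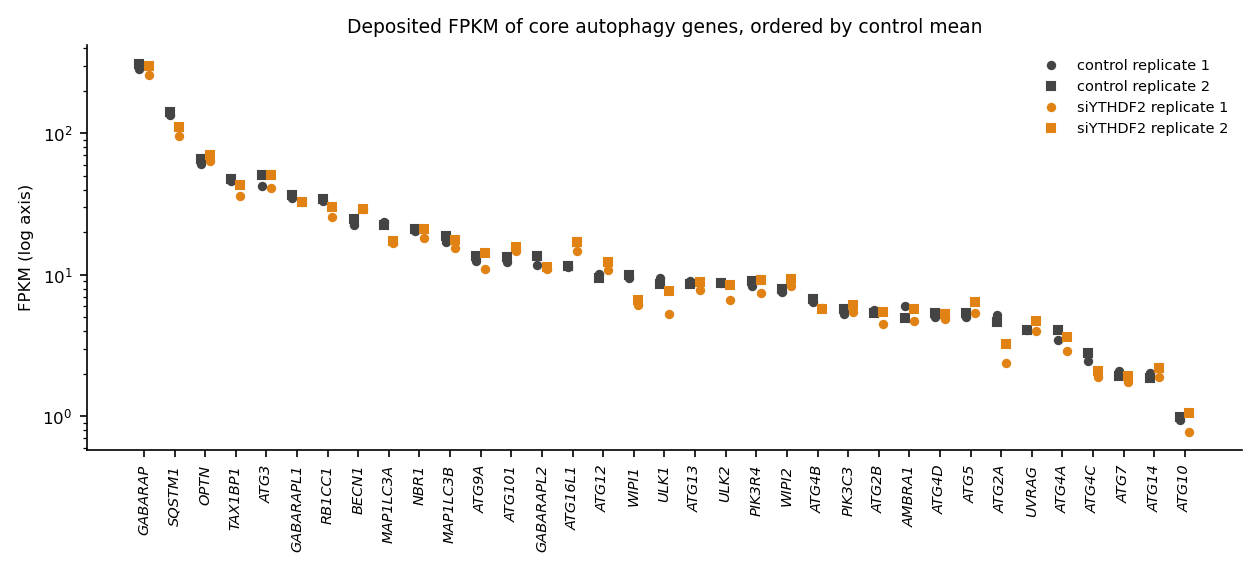
Deposited FPKM of the 35 core autophagy genes in each library on a log axis, ordered by the control mean. Levels fall from 282 and 308 FPKM for GABARAP to 0.947 and 0.992 for ATG10 in the control libraries. The gaps between groups are small beside this full range, but not beside the gaps between many neighbouring genes.

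Within the ATG8 family GABARAP made up 76.4% and 77.2% of the summed FPKM in the control and 77.1% and 79.0% with siYTHDF2. MAP1LC3A made up 6.37% and 5.59% in the control and 5.04% and 4.62% with siYTHDF2. These shares rest on the gene lengths used for FPKM. The length implied by count and FPKM was 11.9 times that of GABARAP for MAP1LC3B and 12.4 times for GABARAPL2.

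The FPKM ratio of 9 of the 13 paralog pairs compared did not overlap between the groups. No share over other gene pairs was computed to read that count against, and for single genes 60.0% did not overlap. The 9 include the pair in each of the 4 families that have only a pair. WIPI1 stood at 1.25 times WIPI2 in both control libraries and at 0.743 and 0.712 times with siYTHDF2, so that the more abundant paralog changed. The log2 ratio shifted by -0.78. ATG2A stood at 0.925 and 0.863 times ATG2B in the control and at 0.527 and 0.595 times with siYTHDF2, a shift of -0.67. The shift was -0.31 for MAP1LC3A against MAP1LC3B and -0.27 for ULK1 against ULK2. The exact two-sided permutation p was 0.333 for each of the 4 pairs, the smallest that 2 libraries against 2 can give, so none of the 13 pairs could pass a threshold of 0.05. Among the ATG4 genes 5 of 6 ratios did not overlap, with shifts from -0.37 (ATG4C to ATG4D) to 0.21 (ATG4B to ATG4C). The 3 ratios among GABARAP, GABARAPL1 and GABARAPL2 overlapped.

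**Figure D4:**
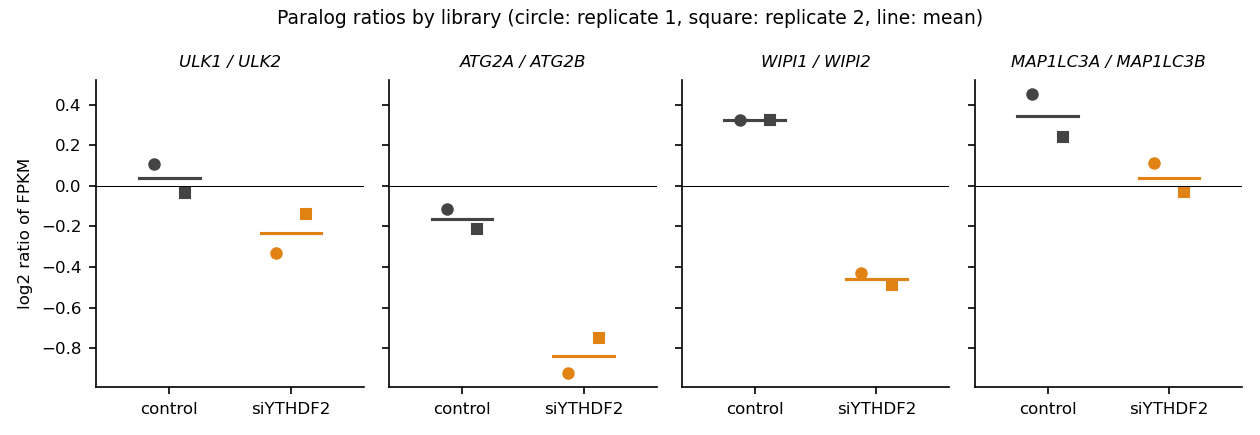
Log2 ratio of FPKM between paralogs in each library, with group means of 2 libraries as lines; 0 means equal FPKM. The WIPI1 to WIPI2 ratio lies above 0 in both controls and below 0 in both siYTHDF2 libraries, a shift of -0.78.

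Other genes of the pathway were followed in 6 lists of 152 tested genes, of which 15 were higher and 37 lower. The higher share of 9.87% is close to the 9.05% of all tested genes, and the lower share was 24.3% against 10.6%. The higher calls numbered 8 and 12 without transfection control replicates 1 and 2, 6 and 11 without siYTHDF2 replicates 1 and 2, and 1 in limma on log2(FPKM + 1). Most lower calls were lysosomal: of 39 lysosome membrane and protease genes 19 were lower and 1 higher, 51.3% called against the background of 19.6%. ATP6AP1, an accessory subunit of the proton pump that acidifies lysosomes, went from 175 and 185 CPM to 77.1 and 75.8 CPM (log2 fold change -1.23), and CTSL, a lysosomal protease, from 33.3 and 33.6 CPM to 16.9 and 14.6 CPM (-1.09). Of 12 genes for pump and accessory subunits 4 were lower, among them ATP6V0A1 (-1.05) and ATP6V1A (-0.66), 7 were not called and 1 was higher, ATP6V1F (0.34, adjusted p = 0.0480). In the same libraries 8 of 14 stroma markers were lower and 1 higher, as given above, and their part in these counts was not tested.

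Of 13 tested transcription factors that act on autophagy genes 4 were lower and none higher, in DESeq2 and at an unadjusted p under 0.05 as well. The lower calls are 30.8% of the list, against 10.6% lower and 9.05% higher among all tested genes. MITF, a relative of TFEB, went from 21.7 and 20.5 CPM to 8.57 and 8.23 CPM (log2 fold change -1.33, SE 0.12, adjusted p = 0.000136), and FOXO1, FOXO4 and CEBPB fell by 0.68, 0.61 and 0.38. TFEB itself, the main activator of lysosome and autophagy genes, had 13.8 and 12.6 CPM in the control and 12.7 and 13.7 CPM with siYTHDF2. TFE3 was at 87.4 to 94.8 CPM in the 4 libraries and was not called.

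Of 27 upstream nutrient and energy sensors 4 were higher and 5 lower, 33.3% called against 19.6% of all tested genes. CAMKK2 and STK11, kinases that activate AMPK, rose by 0.49 and 0.33 on the log2 scale and the AMPK subunit PRKAB1 by 0.30. The sestrin genes SESN3 and SESN1, regulators of mTORC1, differed in direction, SESN3 being higher (0.28, adjusted p = 0.0474) and SESN1 lower (-0.53), while SESN2 was not called. The folliculin gene FLCN (-0.41), the GTPase gene RRAGD (-0.49), AKT1S1 (-0.32) and TSC2 (-0.35), also regulators of mTORC1, fell. Other early machinery had 5 higher and 3 lower of 27, or 29.6% called, among them BCL2L1, a binder of Beclin 1 (0.46), NRBF2, a subunit of the same complex (0.32), and RUBCN, its inhibitor (0.56), which rose. PIK3C2A, a class II PI3-kinase (-0.74), and TMEM41B, a scramblase (-0.28), fell. The other lower call was MAP1LC3C, which rests on counts of 12 and 17 in the control and 0 in both siYTHDF2 libraries. In DESeq2 5 genes of this list were higher and 2 lower.

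Other cargo receptors had 3 higher and 5 lower of 25, or 32.0% called. CCPG1, a receptor for the endoplasmic reticulum, fell from 281 and 266 CPM to 156 and 164 CPM (log2 fold change -0.77), and PINK1, the kinase that starts mitophagy, by 0.64. BNIP3, a mitophagy receptor, rose by 0.49. Of 21 fusion genes 14.3% were called, a share below the 19.6% of all tested genes. VPS18 (0.47) and VPS41 (0.29) were higher, 2 of 6 tested subunits of the HOPS tether, whose other 4 were not called. The SNARE gene STX17 was lower (-0.35). The STX17 call was lost in DESeq2, which called none of the fusion genes lower, while 2 had an unadjusted p under 0.05 in edgeR.

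**Figure D5:**
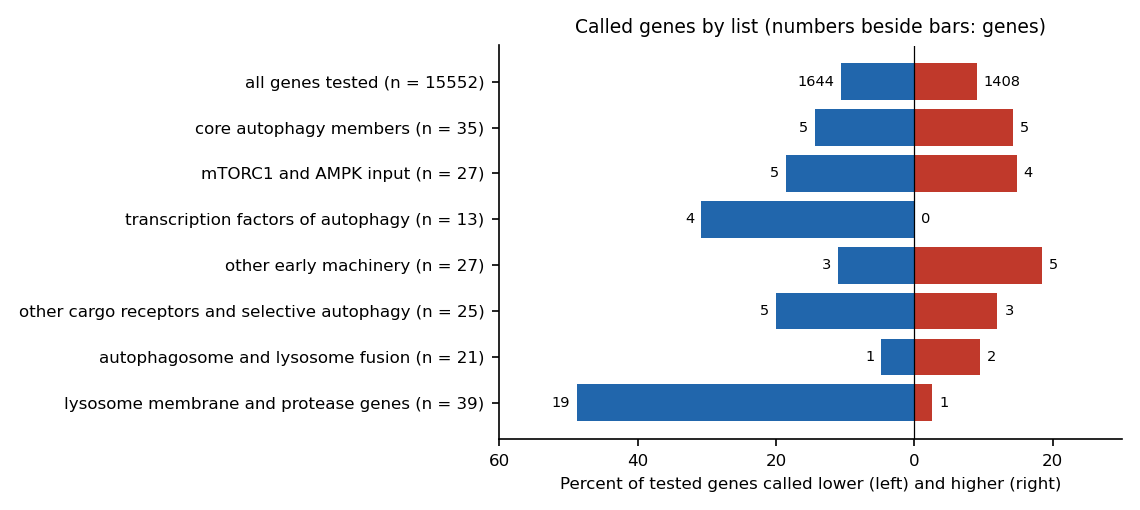
Percent of tested genes called lower (left) and higher (right) in the core autophagy members, the 6 lists of other pathway genes and all tested genes; numbers beside the bars count genes. The lysosome list has 19 of 39 genes lower, and the members 5 higher and 5 lower of 35.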

How the data were processed

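The authors deposited 1 table with counts and FPKM values for 4 libraries, per the file headers. Per the labels' protocols, RNA was extracted with Trizol and libraries made with a TruSeq RNA kit. The protocol mentions retinas, and Bowtie 0.12.2 and a mouse build are what the submitters' processing notes list, although the table carries pig identifiers. Aligner, build, annotation and strand setting are therefore treated as unknown. Groups came from the treatment label and replicate numbers from the titles.

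Deposited counts were tested with edgeR 4.0.16 in R 4.3.3 (expression filter, TMM scaling, robust two-sided quasi-likelihood test, group as the only term). The Benjamini-Hochberg adjustment ran over 15552 genes, with a threshold of 0.05. The test was checked on simulated data. Alternatives used DESeq2 1.42.0 and limma 3.58.1 (with trend) on log2(FPKM + 1) and log2(FPKM + 0.1), which understates changes of low genes. Of 6435 identifiers without a symbol 124 were named through the reference gene table. Replicate libraries differed by more than counting error (chi-square per degree of freedom 16.7 to 16.8).

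Members and lists were chosen with earlier results of these data known, and the grouping of members by step was written after the fit. Named are all called members, members with groups apart by a log2 fold change of at least 0.3, founding genes of each step, and up to 5 called genes per list and direction. The genes of the lists were not taken strictly by p. NPC1 (log2 fold change -0.69) and USP10 (0.36), for example, had a smaller p in edgeR than some genes named. MAP1LC3A, ATG12, ATG16L1, WIPI1 and SQSTM1 are among the 10 members that share bases with another gene of the table. The largest overlap is that of OPTN, 8110 bases with MCM10 on the same strand, and how reads there were counted is not stated. Of 5 further marker genes tested for endothelium 1 was higher, VWF, with counts of 0 in both controls and 24 and 30 with siYTHDF2. Of 6 for leukocytes none was called in edgeR or DESeq2 (1 with an unadjusted p under 0.05), and of 5 for epithelium and 3 for oocytes 1 each was lower. The epithelial gene was CLDN4, with counts of 11 and 15 in the control and 0 in both siYTHDF2 libraries. DESeq2 called no marker of endothelium or epithelium. Sequences were not used here.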

Additional observations from a re-analysis of the deposited data

How the results depend on the processing

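Leaving out a library gave 1 to 3 higher and 3 to 5 lower members (main 5 and 5), with 3 lower without transfection control replicate 1 and 1 higher without siYTHDF2 replicate 1. Over all genes it gave 791 to 1287 higher and 1170 to 1436 lower calls (main 1408 and 1644), and over the 6 lists 6 to 12 higher and 29 to 32 lower (main 15 and 37). The members' median then ran from -0.04 to 0.00. The paralog shifts ran from -0.37 to -0.18 for ULK1 to ULK2, -0.76 to -0.59 for ATG2A to ATG2B, -0.82 to -0.75 for WIPI1 to WIPI2 and -0.41 to -0.20 for MAP1LC3A to MAP1LC3B.

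Higher members numbered 3 with upper quartile scaling, 1 in limma on log2(FPKM + 1) and on log2(FPKM + 0.1), and 2 after quantile normalization. The same limma fits gave 574 and 548 higher genes over all genes, and 1, 1 and, after quantile normalization, 8 higher genes in the 6 lists. On log2(FPKM + 1) and log2(FPKM + 0.1) the members' median was -0.075 and -0.084, against -0.031 and -0.062 for all tested genes. The cause was not tested; the FPKM of siYTHDF2 replicate 1 was low by 11.0% relative to CPM.

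The labels do not say whether libraries with the same replicate number belong together. Deviations of same-numbered libraries correlated at -0.15 over genes, and the replicate block gave 3 higher members, 4 lower, and 9 higher genes in the lists. The crossed pairing, added after seeing the data, gave 7 higher and 7 lower members. All 10 called members kept their direction in all 13 alternatives. No member reversed a call.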

Other observations

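The deposited KEGG annotation of autophagy holds 125 genes, 30 of them core members. A further 54 are neither members nor on the 6 lists, and of the 50 tested 6 were higher and 5 lower, or 22.0% called against a background of 19.6% of all tested genes. EIF2S1, the alpha subunit of the initiation factor eIF2, had a log2 fold change of 0.40 (adjusted p = 0.00283 in edgeR), and IRS2, an adaptor of insulin signalling, one of -0.67 (adjusted p = 0.0140). TP53INP2, a nuclear and autophagosomal regulator, went from 144 and 120 CPM to 104 and 108 CPM. These 3 genes were chosen after their values were seen.

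MAP1LC3C, an LC3 gene outside the 35 members, had counts of 12 and 17 in the control libraries and 0 in both siYTHDF2 libraries, and no fold change is given at that depth. The gene is counted among the 3 lower genes of the other early machinery and the 37 lower genes of the 6 lists.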
